A study of Homo sapiens with 6 samples.

Results

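The pro-survival branch of the BCL2 family was examined in MHH-cALL4, a human cell line from Philadelphia chromosome-like (Ph-like) acute lymphoblastic leukaemia of B-cell precursors, with and without the JAK1 and JAK2 inhibitor ruxolitinib. The members were BCL2, BCL2L1 (which encodes BCL-xL), BCL2L2 (BCL-w), MCL1 and BCL2A1 (BFL-1), taken by name as the anti-apoptotic genes of the family. All 5 were found among the 33616 genes that could be named, and each was measured by 1 transcript cluster, the array's unit of probes that target the same locus. Total RNA was hybridised to 6 Affymetrix arrays: 3 of cells given the vehicle DMSO and 3 of cells given 1 µM ruxolitinib, both for 12 h. The cell line field and the protocols read MHH-cALL4 for all 6 samples, whereas the titles and source names of the 3 ruxolitinib samples read MHH-cALL5. The cell line field was followed; if the titles held instead, treatment and cell line could not be told apart. The labels do not say whether replicates were separate cultures, so p-values measure only the spread between these arrays.

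Proteins of this family decide whether the outer mitochondrial membrane is permeabilised in apoptosis. The effectors BAX and BAK1 form the pores, BH3-only proteins set them off, and the pro-survival members hold both kinds of protein in a groove on their surface. Drugs called BH3 mimetics fill that groove with different selectivity: venetoclax binds BCL2, navitoclax binds BCL2, BCL-xL and BCL-w, and other compounds bind MCL1. STAT5, which JAK kinases activate, is known to induce BCL2L1 in haematopoietic cells.

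The arrays carried the profile of the labelled lineage. Of 13 B-cell precursor markers 11 had a row, with group means between 11.7 and 19.6 on the log2 scale. Those of 23 markers of T and NK, myeloid, erythroid, platelet and stromal cells were 3.62 to 8.95. The stromal list held PECAM1 (8.08 with DMSO and 8.42 with ruxolitinib), which is not restricted to stroma. The upper limit of 8.95 was that of COL1A1. None of the 34 markers passed the test between groups (limma). At an unadjusted p under 0.05 there were 6 (limma), where 9.53% of all genes reached that level. Of these, the B-cell precursor markers VPREB1, RAG1 and MME were higher with ruxolitinib (log2 change 0.56 to 0.60). CD2, S100A8 and S100A9, markers of other cell types, were lower (-0.53 to -0.41). The drug response was seen in CISH, a STAT5-induced feedback inhibitor, which lay between 12.10 and 12.61 on the DMSO arrays and between 5.75 and 5.99 on the ruxolitinib arrays. SOCS2 and PIM1, further STAT5 targets, were lower too (adjusted p up to 0.00295, limma). DMSO replicate 1 and ruxolitinib replicate 3 had the highest scores on the second principal component (38.5 and 33.7). It held 29.8% of the variance, against 30.9% for the first. DMSO replicate 2 was between at 8.31, and the other arrays were at -29.9 to -22.7. Small RNA signal (mean log2 signal of 215 genes for rRNA, snRNA or snoRNA) was highest on the same 2 arrays. It was 8.48 and 8.45 there, against 7.94 to 8.17. They are called below the arrays that stood apart, although on the component the arrays formed a gradient. The members are therefore given with and without these 2 arrays.

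None of the 5 members passed the test at an adjusted p under 0.05 (limma with Benjamini-Hochberg adjustment over all genes). Over all genes 1.14% passed, 1.04% as lower and 0.101% as higher. BCL2L1, BCL2L2 and BCL2A1 had lower values on every ruxolitinib array than on any DMSO array, by 1.40 to 1.58 times on average, MCL1 differed by 1.11 times with overlapping groups, and BCL2 was the only member with a higher mean, by 1.33 times and also with overlap. Among all genes, 9.03% lay lower without overlap and 5.14% higher. At an unadjusted p under 0.05 BCL2L1 and BCL2A1 were lower and no member was higher (limma), where 9.53% of all genes reached that level, 6.85% as lower and 2.68% as higher. The median log2 change over the 5 members was -0.48, against -0.02 over all genes. It was -0.07 over the genes above the median level, where all 5 members lie. In RNA from a whole culture, less RNA per cell and fewer cells that express a gene cannot be told apart.

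**Figure D1:**
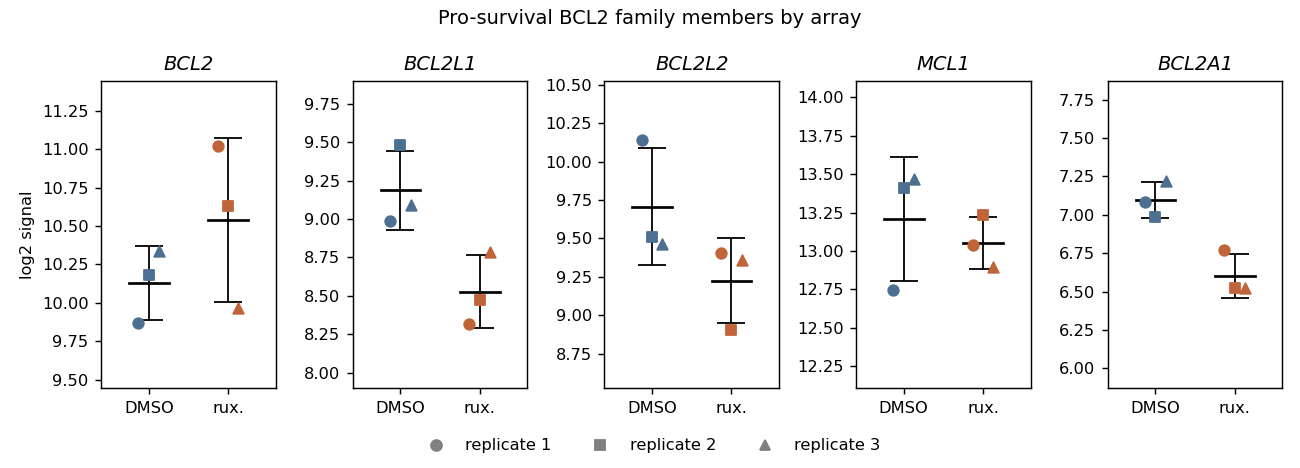
Log2 signal of each pro-survival member on the 3 DMSO and 3 ruxolitinib (rux.) arrays, 1 point per array with its replicate number as the symbol; the horizontal line is the group mean and the bar is 1 SD, and every panel spans the same range of log2 units. The groups are separate for BCL2L1, BCL2L2 and BCL2A1 and overlap for BCL2 and MCL1.

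BCL2, the founding member and the target of venetoclax, read 9.87, 10.18 and 10.34 on the DMSO arrays and 11.02, 10.63 and 9.96 on the ruxolitinib arrays (log2 signal, replicates 1 to 3). Ruxolitinib replicates 1 and 2 were above every DMSO array, while replicate 3 was below DMSO replicates 2 and 3. The means were 10.1 ± 0.24 and 10.5 ± 0.54 (SD, n = 3 each), a log2 change of 0.41 ± 0.26 (SE) with an adjusted p of 0.726 (limma). Its 95% interval ran from -0.16 to 0.98, that is from 0.898-fold to 1.97-fold. The value moved with single arrays: without ruxolitinib replicate 3 the change was 0.70 (adjusted p = 0.275, limma), and without ruxolitinib replicate 1 it was 0.17 (adjusted p = 0.939, limma). Without both arrays that stood apart it was 0.57 (adjusted p = 0.407, limma).

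BCL2L1, whose long isoform BCL-xL is pro-survival and whose short isoform BCL-xS is pro-apoptotic, read 8.99, 9.48 and 9.09 with DMSO and 8.32, 8.47 and 8.78 with ruxolitinib. The highest ruxolitinib value, replicate 3, was still below the lowest DMSO value, replicate 1. The means of 9.19 ± 0.26 and 8.53 ± 0.24 (SD, n = 3 each) gave a log2 change of -0.66 ± 0.20 (SE), or 1.58 times lower, with a 95% interval of -1.11 to -0.22. The unadjusted p was 0.00732 and the adjusted p 0.219 (limma). With DMSO replicate 1 and ruxolitinib replicate 3 left out, the change was -0.89 (adjusted p = 0.126, limma). One cluster covers the gene, so the isoforms were not separated.

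BCL2L2, the BCL-w gene, read 10.14, 9.51 and 9.46 with DMSO and 9.41, 8.91 and 9.36 with ruxolitinib. The groups did not overlap, but the lowest DMSO and the highest ruxolitinib values nearly met, and DMSO replicate 1 was well above the other arrays. The log2 change was -0.48 ± 0.23 (SE), with a 95% interval of -0.98 to 0.02 and an adjusted p of 0.550 (limma). Without DMSO replicate 1 it was -0.26 (adjusted p = 0.795, limma), and without both arrays that stood apart -0.33. BCL2L2-PABPN1, a read-through gene that joins BCL2L2 to its neighbour, has its own cluster with means of 8.24 and 8.24 and a log2 change of 0.00 ± 0.20 (SE), and its sequence overlap with BCL2L2 leaves the source of either signal uncertain.

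MCL1, a short-lived protein on which many leukaemia cells depend, read 12.75, 13.41 and 13.47 with DMSO and 13.04, 13.23 and 12.89 with ruxolitinib. All 3 ruxolitinib values lay inside the DMSO range. The log2 change was -0.15 ± 0.22 (SE; adjusted p = 0.930, limma), and its 95% interval ran from -0.64 to 0.33, or from 0.642-fold to 1.26-fold. A fall by as much as the lower bound is therefore not excluded by these arrays. The low DMSO value was that of replicate 1, and without that array the change was -0.39 (adjusted p = 0.576, limma). Leaving out both arrays that stood apart gave -0.31 (adjusted p = 0.716, limma).

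BCL2A1, an NF-kB target in lymphoid cells, read 7.08, 6.99 and 7.22 with DMSO and 6.77, 6.52 and 6.52 with ruxolitinib. The groups were separate and both were tight, with SDs of 0.12 and 0.14. The log2 change was -0.49 ± 0.17 (SE), or 1.41 times lower, with a 95% interval of -0.88 to -0.11, an unadjusted p of 0.0161 and an adjusted p of 0.324 (limma). It was -0.46 without both arrays that stood apart, where the unadjusted p was 0.0613 (limma). Its level lay inside the range of the markers of other cell types given above, as did that of BCL2L1 with ruxolitinib. Detection calls were not used, so whether such a level exceeds background is unknown, and folds near background tend to come out too small.

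In a fit with 3 arrays a group, small changes of single genes do not pass an adjustment over all genes. With the spread estimated for each member, the log2 change that would have passed was 0.83 for BCL2A1, 0.96 for BCL2L1, 1.05 for MCL1, 1.08 for BCL2L2 and 1.22 for BCL2. These are folds of 1.77 to 2.34. The observed change of each member was below its own limit, which only restates that none passed. An exact two-sided permutation test over the 6 arrays gave p = 0.1 for BCL2L1, BCL2L2 and BCL2A1, the smallest value that 3 against 3 allows, 0.3 for BCL2 and 0.6 for MCL1.

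RefSeq promoter windows (GRCh38.p14) were available for BCL2, BCL2L1 and BCL2A1. The 250 bases before the start are shown for BCL2L1 and BCL2A1, the members with an unadjusted p under 0.05, 5′ to 3′ on the minus strand, with the letters TTCNNNGAA, the core that STAT factors bind, in capitals where they occur. BCL2L1 has 2 annotated starts, and only the window chr20:31723964-31724213 is shown. The window of its other start, chr20:31722869-31723118, is not shown. The BCL2A1 window is chr15:79971197-79971446.
BCL2L1: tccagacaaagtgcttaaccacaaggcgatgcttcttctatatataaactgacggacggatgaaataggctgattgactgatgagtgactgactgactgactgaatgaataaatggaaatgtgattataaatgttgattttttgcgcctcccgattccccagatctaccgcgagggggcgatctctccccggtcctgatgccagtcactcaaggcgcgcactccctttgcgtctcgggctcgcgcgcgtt
BCL2A1: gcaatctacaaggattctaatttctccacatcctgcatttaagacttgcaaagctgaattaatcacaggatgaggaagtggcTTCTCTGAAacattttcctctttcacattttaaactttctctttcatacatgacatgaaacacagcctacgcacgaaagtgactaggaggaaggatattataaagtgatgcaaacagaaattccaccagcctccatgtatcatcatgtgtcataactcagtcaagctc
The windows differ in composition. That of BCL2A1 holds 38.8% G and C with 2 CpG dinucleotides, that of BCL2 70.0% with 24, and those of the 2 annotated starts of BCL2L1 50.0% with 17 and 60.4% with 12, against medians of 58.0% and 11 over 35114 human promoter windows of the same length. TTCNNNGAA, searched on both strands, occurred once in the BCL2A1 window, starting 168 bases before the gene start, and not in those of BCL2 or BCL2L1. It occurred in 6.57% of all windows. The ETS core CCGGAAGT (3.42% of all windows), the cyclic AMP response element TGACGTCA (1.65%) and the NF-kB consensus (5.21%) did not occur in any of the 4 member windows, and these motifs do not overlap the STAT match. A match of letters shows no binding, and a window without one says only that the letters are not in it.

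Probes differ between genes, which also limits the marker ranges above to a rough reading. The signal of one member cannot be set against that of another, but the difference between a pair of members within an array can be followed across arrays. All 10 pairs were compared. BCL2 minus BCL2A1 read 2.78, 3.19 and 3.11 with DMSO and 4.25, 4.11 and 3.44 with ruxolitinib (log2 units), and no other pair was free of overlap. This difference was 0.91 ± 0.28 higher with ruxolitinib (SE over arrays, exact permutation p = 0.1). Any pair whose groups of 3 do not overlap has that exact permutation p, and 10 pairs were looked at. A single pair without overlap is therefore about what that p alone would give. BCL2 minus BCL2L1 read 0.88, 0.70 and 1.25 with DMSO and 2.71, 2.16 and 1.18 with ruxolitinib. Ruxolitinib replicate 3 was below DMSO replicate 3, so the groups overlapped although the mean was 1.07 ± 0.47 higher (exact permutation p = 0.2).

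The shift of BCL2 was 0.89 ± 0.50 against BCL2L2 and 0.57 ± 0.29 against MCL1 (SE; exact permutation p of 0.3 and 0.2), with overlap in both. Single arrays moved these values: the shift against BCL2L2 was 0.54 without DMSO replicate 1, and that against MCL1 was 0.32 without ruxolitinib replicate 1. BCL2L1 minus MCL1 moved by -0.51 ± 0.28 (exact permutation p = 0.2). Among the other 5 pairs the changes ranged from -0.33 to 0.34, with exact permutation p from 0.4 to 1. No pair can reach a p below 0.1 with 3 arrays a group, and the values are a description of these 6 arrays.

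**Figure D2:**
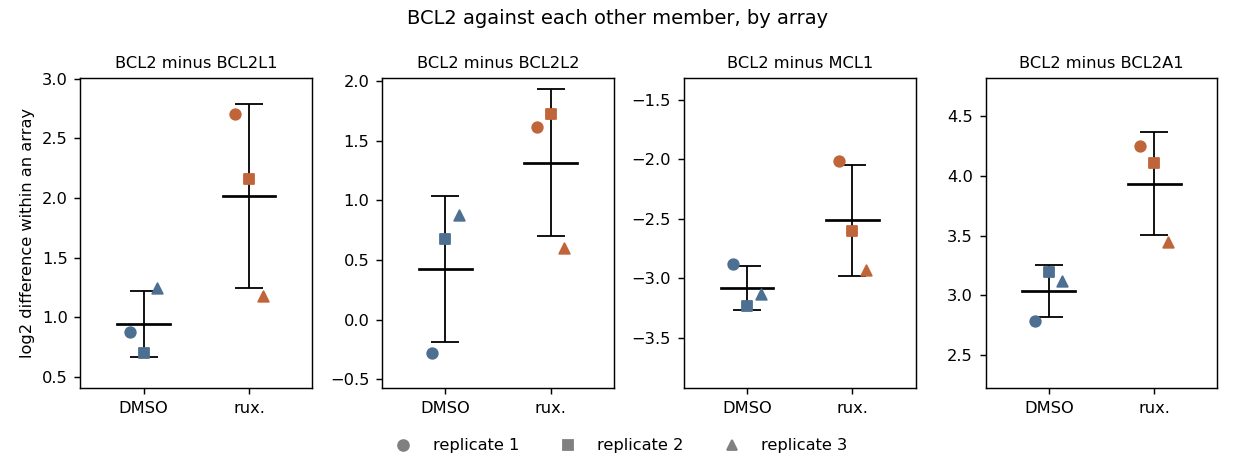
Log2 signal of BCL2 minus that of each other member within the same array, for the 3 DMSO and 3 ruxolitinib (rux.) arrays; the symbol is the replicate number, the line the group mean and the bar 1 SD. The difference from BCL2A1 is higher on all 3 ruxolitinib arrays than on any DMSO array, and in the other 3 panels ruxolitinib replicate 3 lies among the DMSO arrays.

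The partners of the pro-survival proteins were measured in the same arrays. Of the effectors BAX, BAK1 and BOK none passed the test (limma). BAX read 12.87, 12.64 and 13.10 with DMSO and 12.39, 11.85 and 11.74 with ruxolitinib, without overlap, a log2 change of -0.88 ± 0.22 (SE; adjusted p = 0.0987, limma). BAK1 had a change of -0.44 ± 0.27, and BOK, at 3.68 and 3.61 in the 2 groups, was dim in both.

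Of 8 BH3-only genes 7 had a row of a single symbol, and none passed (limma; at an unadjusted p under 0.05, 2 were lower and 0 higher, against 6.85% and 2.68% of all genes). BMF, whose protein binds pro-survival members after loss of anchorage or of growth signals, read 9.04, 9.31 and 9.09 with DMSO and 8.34, 8.64 and 8.60 with ruxolitinib, without overlap (log2 change -0.62 ± 0.18, adjusted p = 0.177, limma). BID, which links death receptors to mitochondria, had a change of -0.81 ± 0.27 with overlapping groups (adjusted p = 0.280, limma). BCL2L11, which encodes BIM, a ligand of every pro-survival member, had a change of 0.03 ± 0.20. PMAIP1, which encodes NOXA, a ligand of MCL1 and BFL-1, had a change of -0.19 ± 0.23. HRK (-0.28), BAD (0.06) and BIK (0.18) did not pass either. BBC3, which encodes PUMA, shares its row with a microRNA and was not tested.

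More distant relatives, whose roles in survival are less settled, did not pass the test. The log2 changes of BCL2L10, BCL2L12, BCL2L13, BCL2L14 and BCL2L15 lay between -0.30 and 0.11, and their adjusted p between 0.852 and 0.999 (limma). BCL2L14 had 15 rows, of which the brightest was used. Over the 20 family genes measured, 15 had a negative and 5 a positive log2 change, against 53.4% negative over all genes, and 5 genes (25%) had an unadjusted p under 0.05, all as lower, where the share of all genes lower at that level was 6.85%. The 5 were BCL2L1, BCL2A1, BAX, BID and BMF, so that pro-survival and pro-apoptotic genes were among them. The shares over all genes include dim and non-coding rows. The median log2 change was -0.06 over protein-coding genes and -0.07 over genes above the median level, against -0.02 over all genes. Shares matched for kind and level were not computed, so the family may stand out less than these shares make it seem.

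**Figure D3:**
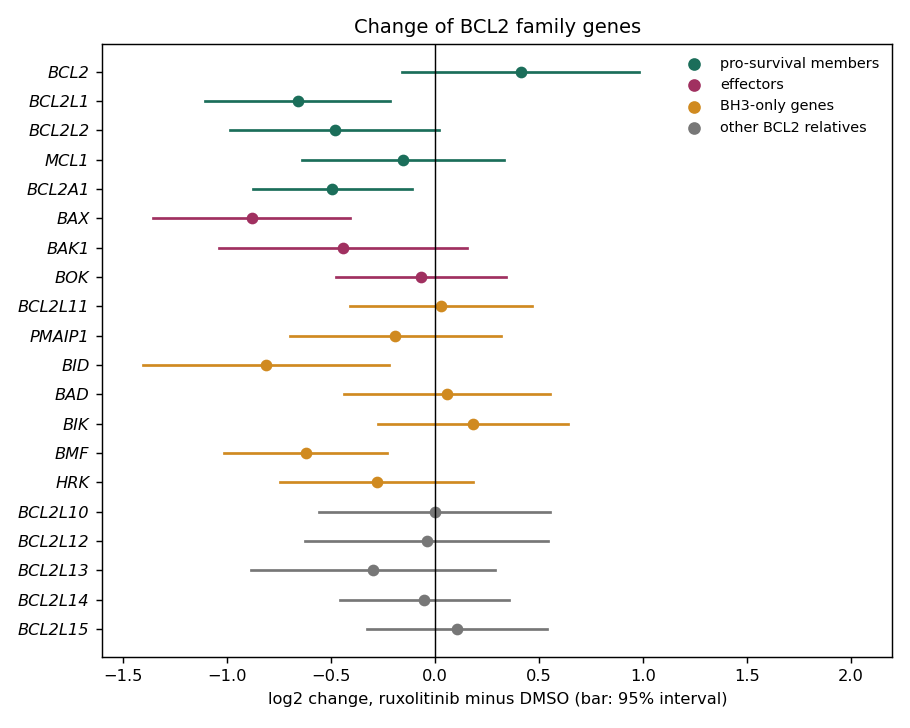
Log2 change (ruxolitinib minus DMSO, horizontal axis) of the 20 measured BCL2 family genes, as a point with its 95% interval from limma, coloured by role. BCL2L1, BCL2A1, BAX, BID and BMF have intervals below 0, and the interval of no gene lies above 0.

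Steps after the mitochondrial membrane were measured by 12 of 14 genes of the apoptosome, the caspases and the inhibitor of apoptosis (IAP) family, of which none passed (limma; at an unadjusted p under 0.05, 2 were lower and 0 higher, against 6.85% and 2.68% of all genes; median log2 change -0.09). CYCS, which encodes cytochrome c, had a change of -1.16 ± 0.26 (adjusted p = 0.0662, limma), with the groups apart. XIAP, an inhibitor of caspases, had a change of -0.42 ± 0.19 (adjusted p = 0.511, limma). BIRC6, at -0.21 ± 0.23, and BIRC3, at -0.24 ± 0.25, did not pass, and APAF1, the scaffold of the apoptosome, had a change of -0.09 ± 0.19.

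A mixed list of 14 genes around BCL2 family proteins held ubiquitin ligases and deubiquitinases, BAG co-chaperones, VDAC channels and others. Of these 2 fell and 0 rose (limma), against 1.04% and 0.101% of all genes. FBXW7, the substrate receptor of a ubiquitin ligase that takes MCL1, cyclin E and MYC as substrates, read 11.89, 12.56 and 12.33 with DMSO and 11.23, 11.01 and 10.99 with ruxolitinib. All ruxolitinib values lay below the DMSO values, and it fell by 1.18 ± 0.21 on the log2 scale (SE; adjusted p = 0.0198, limma). DESI1, a SUMO peptidase, had means of 6.15 with DMSO and 5.10 with ruxolitinib, the latter below the median of all genes (5.25). Whether such a level exceeds background is unknown. DESI1 fell by 1.05 ± 0.21 (adjusted p = 0.0438, limma). Neither was called without DMSO replicate 2, DMSO replicate 3, ruxolitinib replicate 2 or ruxolitinib replicate 3, nor without moderation of the spread, with the replicate number as a block or with all rows tested. Only 1 of them was called after quantile normalization, after cyclic loess, without DMSO replicate 1 or without both arrays that stood apart. VDAC3 (-0.78 ± 0.21, adjusted p = 0.128, limma) and BAG1, a BCL2-binding co-chaperone (-0.58 ± 0.22, adjusted p = 0.362, limma), had the next smallest adjusted p. The MCL1 ligase gene HUWE1 had a change of -0.54 and the MCL1 deubiquitinase gene USP9X one of -0.06.

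The genes next to the members gave a view of their surroundings. The nearest protein-coding neighbours with a row were PHLPP1 and KDSR for BCL2, COX4I2 and TPX2 for BCL2L1, PPP1R3E and BCL2L2-PABPN1 for BCL2L2, ADAMTSL4 and ENSA for MCL1, and ST20-MTHFS and ZFAND6 for BCL2A1. None of these 10 passed the test (limma), where 1.14% of all genes did. At an unadjusted p under 0.05 there were 0 (limma), against 9.53% of all genes. The log2 changes of the 10 lay between -0.39 and 0.13. TPX2, a spindle factor, was at 13.3 and 13.2 in the 2 groups, a change of -0.05 ± 0.18. ZFAND6 was the neighbour whose groups did not overlap, with its lower values under ruxolitinib (-0.39 ± 0.19, adjusted p = 0.552, limma). Among all genes, 9.03% lay lower without overlap.

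Among 10790 protein-coding genes above the median level, those most like each member over the 6 arrays were found by Pearson correlation. For BCL2 they were TOP3A (r = 0.994), ARHGAP19 (0.991) and PECAM1 (0.985). For BCL2L1 they were GPR89A (0.997), ARFIP1 (0.993) and VTI1A (0.990), and for BCL2A1 REXO4 (0.996), MEST (0.994) and UQCC6 (0.994). INTS1, PXN and ATN1 were most like BCL2L2 (0.976 to 0.990), and SGPP1, COG2 and HAND2 most like MCL1 (0.985 to 0.989). Over so few arrays such values are common: 54 genes for BCL2L2, 129 for BCL2, 252 for MCL1, 327 for BCL2L1 and 586 for BCL2A1 had r above 0.9. The points share the treatment and the 2 arrays that stood apart, and the correlations are given as a description.

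No member was called in any of the 18 alternative settings. Spread models, filters, choice of rows, the replicate block and the other threshold leave a member's log2 change as it is. Where it could move, with other scaling, array weights or arrays left out, its direction stayed the same. BCL2L1 ranged from -0.89 to -0.49 on the log2 scale, BCL2A1 from -0.58 to -0.40, BCL2L2 from -0.60 to -0.26, MCL1 from -0.39 to -0.02 and BCL2 from 0.17 to 0.70. The narrowest range was that of BCL2A1. BCL2L1 had its lowest adjusted p, 0.0966, with array weights (limma). The unadjusted p of BCL2 was under 0.05 in 4 settings: 0.00955 without ruxolitinib replicate 3, 0.0286 without both arrays that stood apart, 0.0360 after quantile normalization and 0.0426 after cyclic loess (limma). That of BCL2A1 was above 0.05 in 3, at 0.0558 with DMSO replicate 3 left out, 0.0504 with ruxolitinib replicate 2 left out and 0.0613 with both arrays that stood apart left out (limma). That of BCL2L1 was 0.0401 at most (limma). For BCL2L2 it was under 0.05 only with DMSO replicate 3 left out, at 0.0367, and reached 0.258 after quantile normalization (limma). For MCL1 it was 0.0756 or more (limma).

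**Figure D4:**
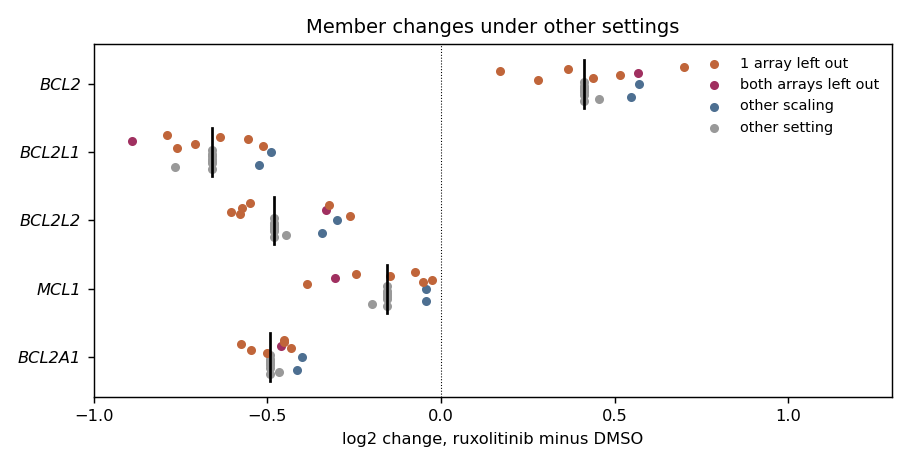
Log2 change (ruxolitinib minus DMSO, horizontal axis) of each member as reported (black line) and under 17 other settings (points; the setting with another threshold leaves the change as it is and is not drawn), coloured by kind of setting. Points of the spread models, filters, row choices and replicate block lie on the black line by construction. No point crosses 0, BCL2 spans 0.17 to 0.70, and MCL1 reaches -0.02.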

How the data were processed

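The authors deposited log2 signals, 1 value per transcript cluster and array, a unit read from the range of 1.99 to 19.9. The submitters' processing notes list RMA (background correction, normalization across arrays and summary of probes) beside Affymetrix Expression Console and Transcriptome Analysis Console, without saying what each did. No version, genome build or filter is given in the sources used here. The number of arrays limits the precision.

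The table had 135750 rows, of which 36176 had exactly 1 gene symbol in the platform annotation, 1119 several and 98455 none; only the first kind was tested by gene. Current symbols came from RefSeq (GRCh38.p14) by Entrez identifier, for the 25516 rows that matched, and a gene (33616 in all) was read from its brightest row, by the mean of the 6 arrays. No coordinates of the array's clusters are printed, since no source names the build of the array. Those of the promoter windows are from RefSeq. The test was limma's moderated fit (version 3.58.1, R 4.3.3), two-sided, with treatment as the only term. The threshold was a Benjamini-Hochberg adjusted p under 0.05 over all genes. The fit was also run on simulated data with known changes. Noise there was independent between genes, so variation that genes share across arrays was not covered. Named genes were all family members, up to 4 of each other list with the smallest adjusted p, the nearest neighbours, a drug response check, cell type markers and the 3 genes most like each member. APAF1, HUWE1 and USP9X were named after their values were seen. The members and lists were chosen with earlier results of these data known. Alternatives covered the spread model, filters, rows, scaling, weights, the replicate number, the threshold and arrays left out.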

Additional observations from a re-analysis of the deposited data

How the results depend on the processing

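None of the 5 members passed the threshold in any of the 18 alternatives. Their direction held under other scaling, array weights and arrays left out, the settings that can move a log2 change. The replicate block, which gave adjusted p from 0.426 for BCL2L1 to 0.999 for MCL1 (limma), changed no call among them. The replicate numbers were not treated as pairs: deviations of same-numbered arrays from their group means correlated at -0.40 to -0.08, and no array correlated best with its own number. The changes in the balance between members moved by less than 1 SD in all 7 alternatives run, but that yardstick is wide. With 1 array left out, the small changes of 4 pairs took both signs (BCL2L1 minus BCL2L2 -0.50 to 0.07, BCL2L1 minus BCL2A1 -0.34 to 0.03, BCL2L2 minus MCL1 -0.58 to 0.12, BCL2L2 minus BCL2A1 -0.17 to 0.24), and BCL2 minus MCL1 ranged from 0.32 to 0.77. The number of genes past the threshold did move, which sets the background against which the members are read. The 384 genes (350 lower, 34 higher) became 122 (116 and 6) with the replicate block, 2 (1 and 1) without moderation of the spread, 104 (98 and 6) with all rows tested, 597 (533 and 64) with only protein-coding genes and 593 (530 and 63) at an adjusted p under 0.1. The higher genes were 59 with cyclic loess, and with quantile normalization 220 were lower and 56 higher. With 1 array left out the total was 101 to 291, the lower genes 98 to 280 and the higher genes 3 to 28. The cause was not tested for the spread model, the scaling or the block, while the other settings test other genes, fewer arrays or another threshold. BAX alone made the lower effectors 1 with only protein-coding genes and at an adjusted p under 0.1. The lower genes of the apoptosome, caspase and IAP list became 1 with the intensity trend, only genes above the median level, only protein-coding genes, array weights, without both arrays that stood apart and at an adjusted p under 0.1, and 0 to 1 with 1 array left out. The 2 lower genes of the mixed list became 0 without moderation, with all rows tested and with the replicate block, 1 with quantile normalization, cyclic loess or without both arrays that stood apart, and 0 to 2 with 1 array left out. The change a member needed to be called was 1.77-fold for BCL2A1 and up to 2.34-fold for BCL2, and clusters near background may understate a change.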
